A study of Mus musculus with 18 samples.

Results

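The genes described here are 10 that act in the G1/S decision, among them the D-type and E-type cyclins: *Cdk2*, *Ccne1*, *Ccne2*, *Cdk4*, *Cdk6*, *Ccnd1*, *Ccnd2*, *Ccnd3*, *Cdkn1b* and *Skp2*. They were picked by gene symbol and make up 10 of the 55450 genes in the count table. All 10 were tested in every comparison, since all 10 passed the filter on low counts. *Cdk2* was included because its product is a target of the drug studied, and the cyclin E genes because the cells come from a cyclin E model.

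In mammalian cells, mitogens induce cyclin D1, D2 or D3, which pair with CDK4 or CDK6 and begin to phosphorylate the retinoblastoma protein. E2F factors are then released and induce cyclins E1 and E2, which activate CDK2 and complete the passage from G1 into S phase. The inhibitor p27, encoded by *Cdkn1b*, binds and blocks cyclin E-CDK2, and the F-box protein SKP2 marks p27 for destruction once CDK2 is active. Gains of *Ccnd1*, *Cdk4* or *Ccne1* and loss of p27 protein are frequent in lung cancers, so this group of genes is widely used to describe how a tumor cell enters the cycle.

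RNA-Seq was done on ED1SQ4, a murine lung cancer line that arose in mice with transgenic overexpression of cyclin E. Every culture carries that history, those given vehicle included. The promoter and the species of the transgene were not given in the sources used here, so endogenous and transgenic *Ccne1* reads cannot be told apart. Cells received vehicle (0 μM) or 0.5 μM CYC065 (fadraciclib), an inhibitor of CDK2 and CDK9, for 72 hours, and CDK9 is a kinase that RNA polymerase II needs for productive elongation. For each treatment there was 1 library of unsorted cells, 1 of 2N cells and 1 of 4N cells, the 2N and 4N cells sorted by DNA content after live staining with a DNA dye. A 4N gate can hold G2 and M cells of a diploid cycle as well as polyploid cells. These are bulk samples of 1 line, in which fewer cells in a given phase and less RNA per cell cannot be told apart.

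The 3 columns deposited per condition were titled as replicates, while their library names numbered them as parts of 1 library. Over genes with whole counts they differed by no more than counting noise (chi-square per degree of freedom 0.991 to 1.02), and over the 2513 to 2649 genes with fractional estimates by more (4.35 to 7.59). Of 60 sets of 3 columns, 1 for each of the 10 genes in each condition, 2 passed the 5% chi-square value. The columns were summed and counted as 1 library (54750168 to 62795451 counts each). Whether the 2N and 4N cells of a treatment came from the same culture was not given. The 3 libraries of a treatment are different cell populations, not replicates of 1 condition. P values of the fit therefore rest on how far the treatment response differed between unsorted, 2N and 4N cells. They do not measure the spread between replicate cultures. The labelled tissue is lung, but its defining markers were near absent. Of 10 lung epithelial markers, 8 stayed below 1 CPM (a gene's counts over the TMM-scaled library size) in every library and 4, among them *Nkx2-1* and *Scgb1a1*, had no count at all. The summed level of this list was 1.86 to 2.76 CPM in vehicle and 10.2 to 21.3 CPM with CYC065, led by *Hopx* (1.27 to 12.9 CPM). None of 8 general epithelial markers reached 1 CPM. Of 8 fibroblast and mesenchymal markers, 8 exceeded it, and their summed level ran from 12100 to 13500 CPM in vehicle and from 13400 to 21400 CPM in CYC065 libraries. The summed immune list was at 4.71 to 5.67 CPM in vehicle and 11.9 to 25.8 CPM with CYC065, led by *Cd68*, while *Ptprc* and *Cd3e* stayed below 1 CPM. The endothelial list stayed at 0.601 to 1.89 and 1.01 to 1.37 CPM. The part of these marker changes in the results was not tested.

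Promoters are shown for 3 genes that span the responses described below: *Cdk4* and *Cdk2*, which were repressed, and *Cdkn1b*, which was increased. The RefSeq table (GRCm38.p6, the mm10 assembly) held windows for 7 of the 10 genes, 9 windows in all. It held none for *Ccne2*, *Ccnd1* and *Ccnd2*, so their promoters were not searched. Each window covers the 250 bases before the annotated start, written 5′ to 3′ on the gene's strand. The motifs searched on both strands were an E2F motif (TTTCCCGC or TTTGGCGC), the E-box CACGTG, the CCAAT box and a forkhead motif (TGTTTAC), none of which overlaps another in these windows. Capitals mark the E-box in *Cdk4*, the E2F motif (on the opposite strand) and the CCAAT box in *Cdk2*, and the CCAAT box in *Cdkn1b*. The windows lie at chr10:127063285-127063534 (plus strand), chr10:128705052-128705301 (minus strand) and chr6:134920151-134920400 (plus strand), in the order printed.
Cdk4: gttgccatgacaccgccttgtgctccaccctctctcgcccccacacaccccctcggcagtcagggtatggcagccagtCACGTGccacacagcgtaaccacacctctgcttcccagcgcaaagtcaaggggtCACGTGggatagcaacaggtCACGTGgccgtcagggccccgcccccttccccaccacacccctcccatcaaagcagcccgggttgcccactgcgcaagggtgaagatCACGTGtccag
Cdk2: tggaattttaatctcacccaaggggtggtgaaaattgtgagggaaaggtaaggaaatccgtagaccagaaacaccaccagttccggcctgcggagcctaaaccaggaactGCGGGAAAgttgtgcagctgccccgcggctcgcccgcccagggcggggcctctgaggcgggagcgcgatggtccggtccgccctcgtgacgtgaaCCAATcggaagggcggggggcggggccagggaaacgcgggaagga
Cdkn1b: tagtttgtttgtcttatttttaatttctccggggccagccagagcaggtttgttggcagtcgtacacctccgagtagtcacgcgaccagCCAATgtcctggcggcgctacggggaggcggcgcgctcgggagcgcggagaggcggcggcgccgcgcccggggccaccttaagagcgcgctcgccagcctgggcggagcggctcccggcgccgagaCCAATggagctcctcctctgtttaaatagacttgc

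The *Cdk4* window held 4 E-boxes, beginning 172, 118, 98 and 11 bases before the start. At least 1 E-box was present in 6.02% of all 32851 promoter windows and 4 or more in 0.0213%, which is 7 windows. *Cdk6* held 1 E-box, and no other window of these genes had one. The *Cdk2* window was the only one of the 9 with the E2F motif, which 1.3% of all windows contain. Its CCAAT box began 45 bases before the start. *Cdkn1b* had 2 CCAAT boxes, beginning 161 and 35 bases before the start, against 33.8% of all windows with at least 1 and 10.1% with at least 2. The forkhead motif, found in 3.17% of windows, matched only the upstream of the 2 *Ccnd3* windows. The GC content was 64.4% in the *Cdk4*, 63.2% in the *Cdk2* and 64.4% in the *Cdkn1b* window, against a median of 52.4% over all windows. The shares of windows with a motif were not adjusted for this. These are matches of letters in a short window and were not tied to binding.

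Whether CYC065 changed these genes was asked across all 6 libraries with edgeR's quasi-likelihood test, with the population (unsorted, 2N or 4N) as a second term and Benjamini-Hochberg adjustment over all 14762 genes tested. In cells given CYC065, both cyclin E genes, *Cdk2*, *Cdk4*, *Ccnd1* and *Ccnd3* were repressed, and *Cdkn1b*, *Ccnd2* and *Cdk6* were increased. These directions are relative to the other genes of a library, so a change of total RNA per cell would not show. Of the 10 genes, 3 were called higher at an adjusted P below 0.05, beside 27.7% of all genes tested, and 6 were called lower, beside 27.1%. With a log2 fold change beyond 1 also required, 1 was higher and 4 were lower, beside 13.4% and 9.94% of all genes. The median log2 fold change of the 10 genes was -0.57, against 0.03 over all genes. In 3 genes all CYC065 libraries lay above all vehicle libraries and in 6 all lay below, patterns seen in 29.7% and 28.8% of all genes. *Skp2* was the only one of the 10 whose treatment groups overlapped.

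**Figure D1:**
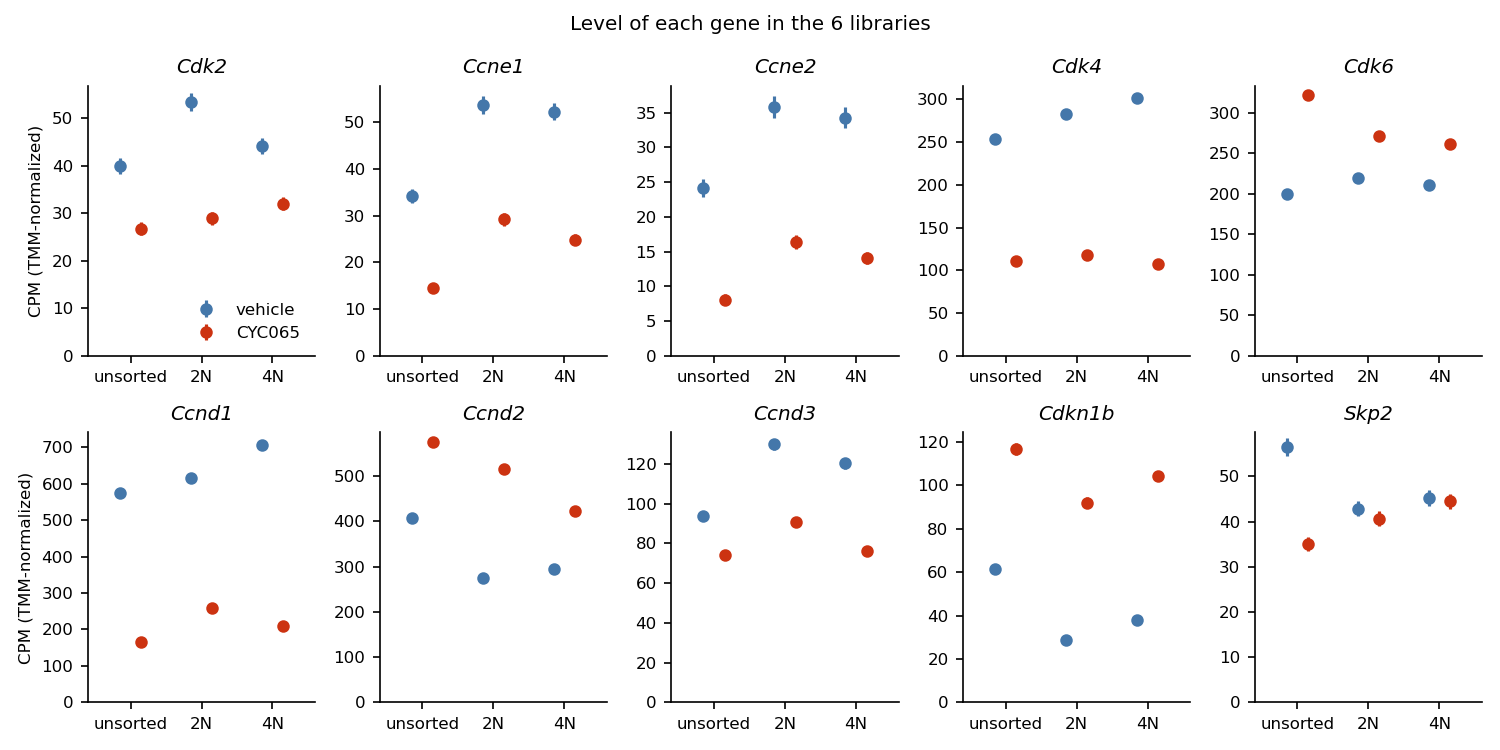
Level of each of the 10 genes (y axis, TMM-normalized CPM from 0) in unsorted, 2N and 4N cells (x axis), with vehicle in blue and CYC065 in red. Each point is 1 library and the bars are 95% Poisson intervals, which cover counting error only; the colors separate in every panel except that of *Skp2*.

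*Cdk2*, at chr10:128697939-128705031, encodes the kinase that cyclin E activates and that CYC065 inhibits. Its level was 39.9 CPM in unsorted, 53.3 in 2N and 44.1 in 4N cells given vehicle. With CYC065 it was 26.8, 28.9 and 32.0 CPM in the same order, so the highest treated library lay below the lowest control. The fitted log2 fold change was -0.64 (SE 0.115, n = 3 libraries per treatment, each of a different population, adjusted P = 0.00537 by edgeR), which is 1.56-fold lower. The counting intervals of the unsorted and 2N treated libraries overlapped, and those of all other neighbors in the order of levels did not.

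The E-type cyclins, which bind and activate CDK2, had larger fitted decreases than the kinase, a difference that was not tested. *Ccne1*, at chr7:38097984-38107534, stood at 34.2 CPM in unsorted, 53.7 in 2N and 52.3 in 4N vehicle cells. With CYC065 the values were 14.5, 29.2 and 24.9 CPM, and the groups did not overlap. The fit gave a log2 fold change of -1.06 (SE 0.109, adjusted P = 0.000876), or 2.09-fold lower. *Ccne2*, at chr4:11191351-11204779, which encodes the second E-type cyclin, went from 24.1, 35.8 and 34.3 CPM to 8.07, 16.4 and 14.1 CPM. Its log2 fold change was -1.33 (SE 0.126, adjusted P = 0.000719), or 2.51-fold lower. For both genes the unsorted library was the lowest within each treatment, and the 2N and 4N vehicle libraries overlapped in their counting intervals. *Ints8*, on the opposite strand, shares 17.4% of the annotated exon bases of *Ccne2* and had 19942 counts over the 6 libraries, against 7831 for *Ccne2*, and whether the counting used strand was not stated.

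*Cdk4* and *Cdk6* encode the paired kinases of the D-type cyclins, and they moved in opposite directions. *Cdk4*, at chr10:127063534-127067920, was at 253 CPM in unsorted, 283 in 2N and 301 in 4N vehicle cells. In CYC065-treated cells it was at 111, 118 and 107 CPM. These treated values were close to each other and far below every control value, and the unsorted and 4N ones overlapped in their counting intervals. The log2 fold change was -1.31 (SE 0.0977, adjusted P = 0.00046), or 2.48-fold lower. The opposite-strand gene *Tspan31* covers 19.7% of its exon bases and had 19786 counts over the 6 libraries, against 69023 for *Cdk4*. *Cdk6*, at chr5:3341485-3531008, rose from 200 CPM in unsorted, 220 in 2N and 211 in 4N cells to 322, 272 and 261 CPM. Its increase was the smallest called change of the 10 genes, with a log2 fold change of 0.43 (SE 0.11, adjusted P = 0.0182), or 1.35-fold. That call did not hold without the 2N libraries (adjusted P = 0.0561) or without the 4N libraries (adjusted P = 0.0547), with a log2 fold change of 0.50 in both cases.

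The 3 D-type cyclins, which couple growth factor signals to CDK4 and CDK6, did not respond as a set. *Ccnd1*, at chr7:144929931-144939925, was the most abundant of them in vehicle cells, with 573 CPM in unsorted, 614 in 2N and 706 in 4N cells. It was at 166, 259 and 210 CPM with CYC065. This was the strongest repression among the 10 genes, with a log2 fold change of -1.59 (SE 0.136, adjusted P = 0.000552), or 3.02-fold lower, and only 3.24% of all genes tested had a lower value. *LTO1*, on the opposite strand, covers 23.4% of its exon bases but had 3349 counts over all 6 libraries, against 148896 for *Ccnd1*.

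*Ccnd2*, at chr6:127125162-127152193, moved the other way. Vehicle cells had 407 CPM in unsorted, 274 in 2N and 295 in 4N cells, and CYC065-treated cells had 574, 515 and 422 CPM. The lowest treated library, 4N, was thus little above the highest control, unsorted, although their counting intervals did not overlap. The log2 fold change was 0.64 (SE 0.117, adjusted P = 0.00556), or 1.56-fold. *Ccnd3*, at chr17:47505051-47599691, fell from 93.8, 130 and 120 CPM to 74.4, 91.0 and 76.1 CPM. Its log2 fold change was -0.50 (SE 0.0983, adjusted P = 0.00713), and the unsorted vehicle library overlapped the 2N treated one in its counting interval. Without the 2N libraries the log2 fold change was -0.49 (adjusted P = 0.0537) and without the 4N libraries -0.42 (adjusted P = 0.0644), while without the unsorted libraries it was -0.62 and passed (adjusted P = 0.000143).

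*Cdkn1b*, at chr6:134920401-134925513, encodes p27, the inhibitor of cyclin E-CDK2. It was the only one of the 10 genes to rise beyond a log2 fold change of 1. Its level was 61.5 CPM in unsorted, 28.8 in 2N and 37.9 in 4N vehicle cells. In CYC065-treated cells it was 117, 92.0 and 104 CPM, and no 2 libraries overlapped in their counting intervals. The log2 fold change was 1.35 (SE 0.157, adjusted P = 0.00126), or 2.55-fold, and 90.7% of all genes tested had a lower value.

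*Skp2*, at chr15:9111985-9155425, encodes the F-box protein that targets p27. Its values were 56.5 CPM in unsorted, 42.9 in 2N and 45.2 in 4N vehicle cells. With CYC065 they were 35.0, 40.7 and 44.5 CPM. The highest and the lowest of the 6 were both unsorted, and the 4 sorted libraries formed a chain of overlapping counting intervals. Its log2 fold change of -0.26 (SE 0.152, adjusted P = 0.188) did not pass the test.

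Set side by side, the point values of all 10 genes agreed in direction between populations but not in size. For *Skp2* the direction was not settled, since its counting intervals in 2N and 4N cells included 0. Its 4N value turned to 0.05 with scaling by library size alone. A difference in response between populations cannot be tested with 1 library per condition, so the folds below carry counting error only (95% exact Clopper-Pearson intervals). In unsorted cells, 0 of the 10 genes were beyond a log2 fold change of 1 upward and 4 downward, beside 12.6% and 12.6% of genes. In 2N cells the numbers were 1 and 3, beside 16.2% and 11.4%, and in 4N cells 1 and 4, beside 15.5% and 10.1%. *Ccne2*, *Cdk4* and *Ccnd1* were beyond that fold downward in all 3 populations. *Ccne1* was beyond it in unsorted and 4N cells, the latter with an interval of -1.16 to -0.99, and at -0.88 in 2N cells.

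*Cdkn1b* showed the widest gap among populations of the increased genes. Its log2 fold change was 0.93 (interval 0.87 to 0.99) in unsorted cells, 1.67 (1.59 to 1.75) in 2N cells and 1.46 (1.39 to 1.53) in 4N cells. The treated libraries were within 1.27-fold of each other, so the gap lay mainly in the vehicle libraries, where unsorted cells had 2.13 times the level of 2N and 1.62 times that of 4N cells. *Ccnd2* had the same pattern in vehicle, with unsorted cells at 1.48 times the 2N and 1.38 times the 4N level.

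*Skp2* was at -0.69 (-0.77 to -0.61) in unsorted cells, while its intervals in 2N cells (-0.16 to 0.01) and 4N cells (-0.10 to 0.05) included 0. *Ccnd1* was at -1.79 in unsorted and -1.75 in 4N cells but at -1.25 in 2N cells, where its treated level was highest. *Cdk2* went the other way, with its largest fall in 2N cells (-0.88, -0.97 to -0.80) and smaller ones in unsorted (-0.58) and 4N cells (-0.46). *Cdk6* was at 0.69 in unsorted cells and at 0.30 and 0.31 in 2N and 4N cells. *Cdk4* was among the most even, between -1.19 and -1.49.

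**Figure D2:**
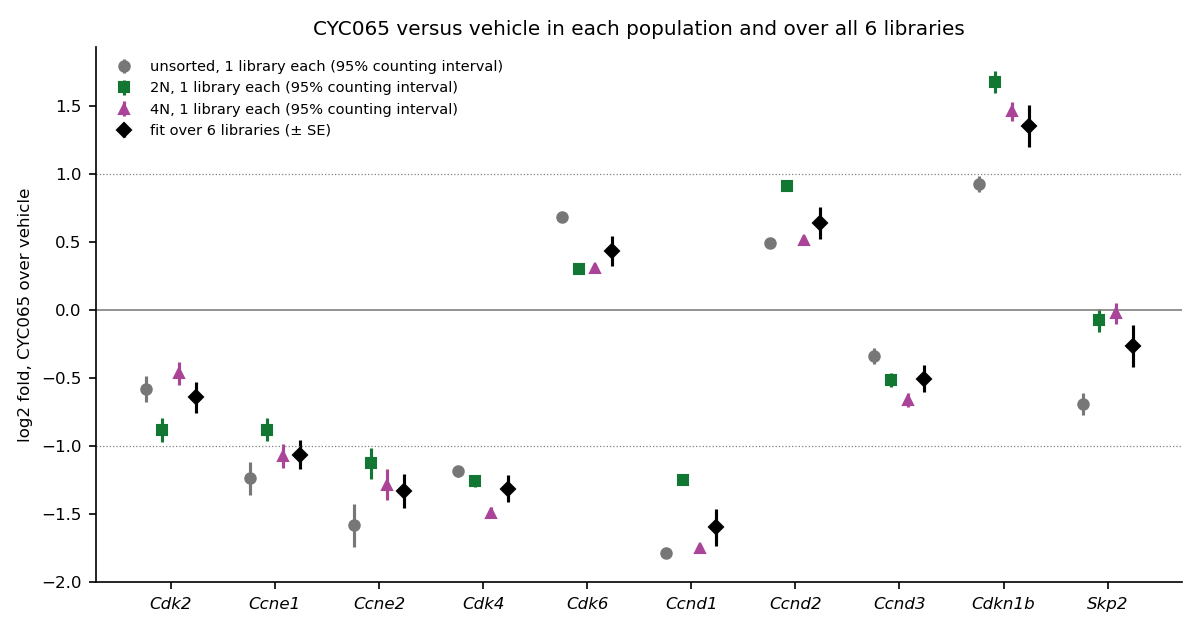
Log2 fold change of CYC065 over vehicle (y axis) for each gene (x axis), in unsorted cells (grey circles), 2N cells (green squares) and 4N cells (purple triangles) with 95% counting intervals, and from the fit over 6 libraries (black diamonds, ± SE). Dotted lines mark a log2 fold change of 1 in either direction; *Cdkn1b* alone lies above the upper line in 2N and 4N cells, and the 2 sorted *Skp2* points lie at the zero line.

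Sorted and unsorted cells differed within a treatment as well. The E-type cyclins were higher in sorted cells, with *Ccne1* 1.57-fold and 1.53-fold higher in 2N and 4N than in unsorted vehicle cells and 2.01-fold and 1.71-fold higher in treated cells. *Ccne2* was 2.03-fold and 1.75-fold higher in the sorted treated cells. Only sorted cells are described as stained and sorted, so handling and population cannot be told apart here.

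Because ratios within a library need no scaling between libraries, 6 pairs were compared as log2 ratios of counts per exon length, with a two-sided exact permutation test over 3 against 3 libraries. This test allows 20 splits and cannot give a P below 0.1. In each of the 6 ratios the treatments did not overlap (exact permutation P = 0.1 for each, 0.1 after Benjamini-Hochberg adjustment over the 6), which also holds for 56.3% of all pairs of genes tested. For 3 of the 6, *Ccnd2*/*Ccnd1*, *Cdk6*/*Cdk4* and *Cdkn1b*/*Cdk2*, this followed from the levels, since numerator and denominator already separated in opposite directions, so the ratios are given as descriptions. The *Ccnd2*/*Ccnd1* ratio was 0.355 in unsorted, 0.223 in 2N and 0.209 in 4N vehicle cells, and 1.73, 0.996 and 1.01 with CYC065, 4.71-fold higher on average. Per length of the principal transcript, the treated values were 2.04, 1.18 and 1.19. The *Ccnd3*/*Ccnd1* ratio was 0.0878 to 0.113 in vehicle and 0.189 to 0.241 in CYC065-treated cells, 2.13-fold higher on average.

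For the kinases, the *Cdk6*/*Cdk4* ratio was 0.183 in unsorted, 0.181 in 2N and 0.163 in 4N vehicle cells. With CYC065 it was 0.671, 0.534 and 0.566, on average 3.35-fold higher. *Cdk4* nevertheless stayed the more abundant of the pair in every library. The ratio of inhibitor to kinase, *Cdkn1b*/*Cdk2*, was 2.11 in unsorted, 0.739 in 2N and 1.17 in 4N vehicle cells and 5.97, 4.35 and 4.46 with CYC065, or 3.99-fold higher on average. Per length of the principal transcript, which is 2240 bases for *Cdk2* against 6219 of annotated exon, the same ratios were 0.759, 0.266 and 0.423 in vehicle and 2.15, 1.57 and 1.61 with CYC065, so whether *Cdkn1b* exceeded *Cdk2* in vehicle cells depended on the length. *Cdkn1b*/*Skp2* was 1.88, 1.16 and 1.45 in vehicle and 5.78, 3.91 and 4.06 in treated cells, or 3.07-fold higher, and per principal transcript 0.746, 0.461 and 0.574 against 2.29, 1.55 and 1.61. The pair that changed least was *Ccne2*/*Ccne1*, with 0.537, 0.507 and 0.499 in vehicle and 0.423, 0.427 and 0.432 in treated cells, a mean ratio of 0.831 of that in vehicle.

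The same counts can be read as shares of each family, per kb of exon. *Ccnd1* made up 69.3% to 76.9% of cyclin D transcripts in vehicle and 33.7% to 45.8% in treated cells, and *Ccnd2* made up 16.1% to 24.6% and 45.6% to 58.2%. The summed cyclin D level per kb was 174 to 195 CPM in vehicle and 98.2 to 120 CPM with CYC065, lower in every treated library despite the higher *Ccnd2* level. *Cdk4* was 84.5% to 86.0% of the CDK4 and CDK6 transcripts in vehicle and 59.9% to 65.2% in treated cells. The summed level of this pair was 92.3 to 108 CPM per kb in vehicle and 51.7 to 57.3 with CYC065. *Ccne1* held 65.1% to 66.7% of cyclin E transcripts in vehicle and 69.8% to 70.3% with CYC065. The choice of length also mattered for *Ccnd3*. Its share was 6.09% to 8.83% per exon length and 17.0% to 22.8% per length of the principal transcript, since its annotated exons sum to 8775 bases and its principal transcript to 2113.

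**Figure D3:**
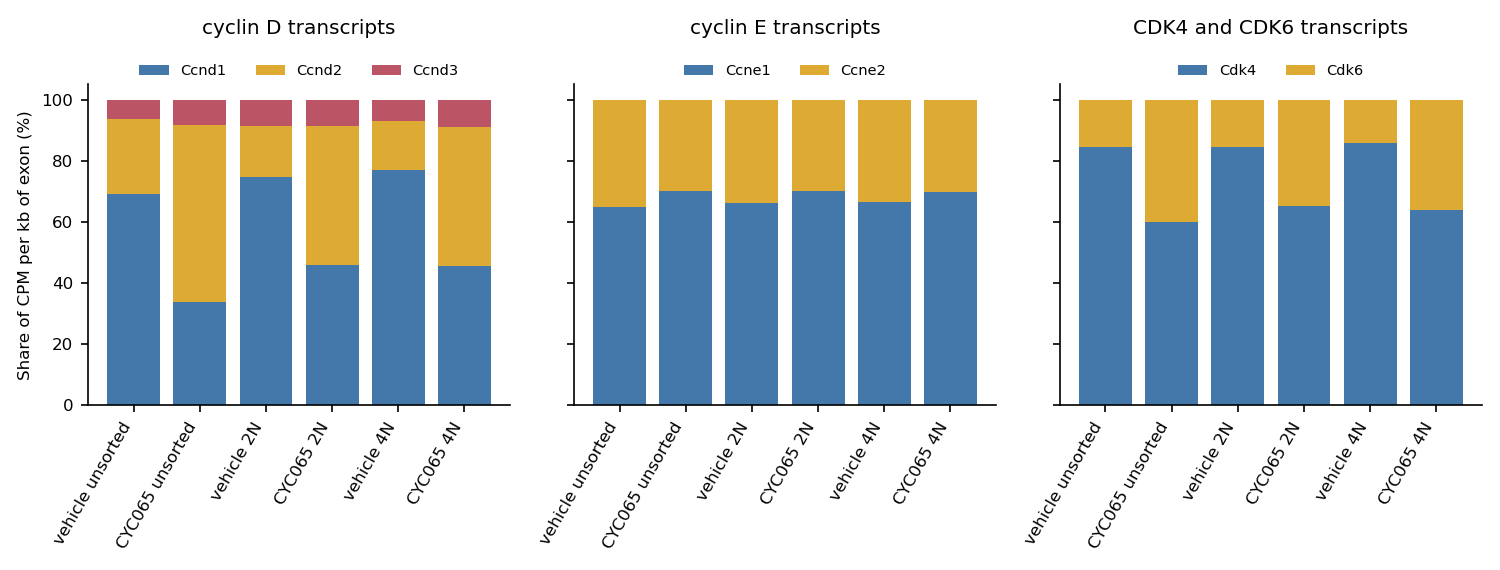
Share of the level per kb of annotated exon (y axis, %, stacked to 100) held by each gene of the cyclin D, cyclin E and CDK4/CDK6 groups in each of the 6 libraries (x axis). The *Ccnd2* and *Cdk6* segments are larger in every CYC065 library than in any vehicle library, while the cyclin E split moves by a few percentage points.

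Across the 10 genes, the order of levels per kb of exon also changed. In 2N vehicle cells *Ccnd1* led with 131 CPM per kb, followed by *Cdk4* (87.1), *Ccnd2* (29.1) and *Ccne1* (20.2), with *Cdkn1b* (6.33) above only *Skp2* (5.45). In 2N cells given CYC065, *Ccnd1* (54.9) and *Ccnd2* (54.7) were level, *Cdk4* had 36.4, *Cdkn1b* came next with 20.2, and *Cdk2* (4.65) and *Ccne2* (4.69) were the lowest. Per length of the principal transcript, *Cdkn1b* was the lowest of the 10 in 2N vehicle cells (6.33) and above *Ccne1* (14.6), *Skp2*, *Cdk2* (12.9) and *Ccne2* (5.45) in treated ones (20.2).

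Whether cells of the 4N gate differ from cells of the 2N gate in these genes was asked in the same fit, averaged over both treatments. At an adjusted P below 0.05, edgeR called 0 of all 14762 genes tested between 4N and 2N cells. The 10 G2/M genes were not called either, although their fitted median was 1.02 higher in 4N cells on the log2 scale. A lack of calls in this fit therefore cannot show whether the 10 genes described here differ. None of these 10 had an unadjusted P below 0.05 in this fit, which 520 genes (3.52%) had. Without the unsorted libraries, *Cdkn1b* had an unadjusted P of 0.0155 by edgeR (log2 fold change 0.29, adjusted P = 0.289). In that fit 1471 of 14482 genes had an unadjusted P below 0.05. DESeq2 called 79 genes higher and 18 lower, none of them among the 10. Among the 10 genes, the largest fitted differences were 0.28 (SE 0.189) for *Cdkn1b* and -0.18 (SE 0.12) for *Ccnd3*, each with an adjusted P of 0.999 by edgeR. In the pairwise folds, 0 of the 10 genes passed a log2 fold change of 1 in either treatment, beside 3.56% of genes in CYC065 and 2.69% in vehicle cells. The largest differences in size were 0.30 in CYC065 and 0.39 in vehicle cells on the log2 scale.

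Within these small values, *Cdkn1b* was higher in 4N than in 2N cells in both treatments, at 0.39 (0.30 to 0.49) in vehicle and 0.18 (0.13 to 0.23) in CYC065 cells. *Ccnd3* was lower in both, at -0.11 (-0.16 to -0.06) and -0.26 (-0.31 to -0.20), and *Cdk6* at -0.06 in both. *Ccnd1* was higher in 4N vehicle cells (0.20, 0.18 to 0.22) and lower in 4N CYC065 cells (-0.30, -0.33 to -0.27). *Cdk4* (0.09 and -0.14) and *Ccnd2* (0.11 and -0.29) had the same pair of signs, and *Cdk2* the opposite one (-0.27 and 0.15). The median of 10 G2/M genes was 0.79 higher in 4N than in 2N vehicle cells and 1.28 higher in 4N than in 2N CYC065 cells, beside 0.02 and -0.18 for the 10 genes described here.

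**Figure D4:**
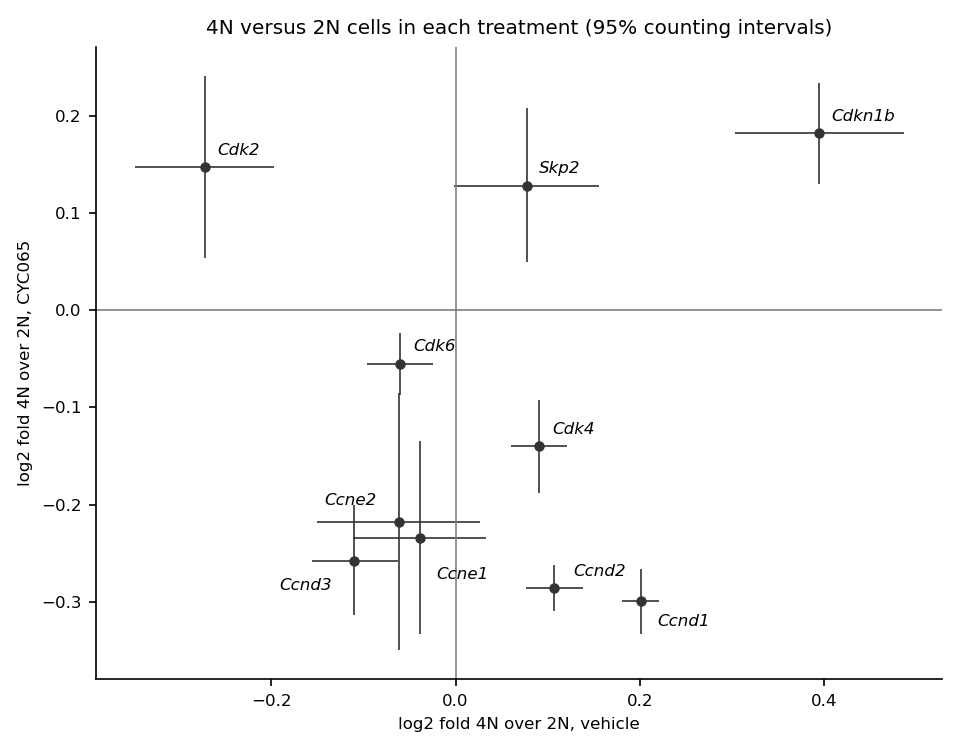
Log2 fold change of 4N over 2N cells in vehicle (x axis) and in CYC065-treated cells (y axis) for the 10 genes, with 95% counting intervals. All points lie within 0.394 of zero on both axes, and *Cdk2*, *Cdk4*, *Ccnd1* and *Ccnd2* lie in the 2 quadrants of opposite sign.

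The genes that act with these 10 were followed as 9 lists of 62 genes in all, of which 60 could be tested in the 6-library fit. All 9 lists were chosen with earlier results of these data known, so their counts are descriptions. All counts of called genes below stand beside 27.7% of genes called higher and 27.1% called lower over the whole fit, and a median of 0.03. The upstream inhibitors of CDK4/6, the INK4 family, had 2 of 4 genes called higher, 0 called lower, and a median log2 fold change of 0.24. The other 2 were not called and had negative log2 fold changes (-0.34 and -0.33), so the family did not move as a set. *Cdkn2a*, which encodes p16 and p19ARF, rose 2.32-fold (108 to 126 CPM in vehicle and 245 to 283 CPM in treated cells, adjusted P = 0.000407). *Cdkn2b*, which encodes p15, rose 1.75-fold (adjusted P = 0.00354). Among the other CIP/KIP inhibitors, *Cdkn1a*, which encodes p21, was lower by 1.59-fold (adjusted P = 0.0229), opposite in direction to *Cdkn1b*, and *Cdkn1c* was too low to test.

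Of the 3 pocket proteins, the substrates of these kinases, 2 were called higher and 1 lower, and they are given as single genes. *Rbl1* (p107) fell 4.66-fold (adjusted P = 0.000356), while *Rbl2* (p130) and *Rb1* rose 2.19-fold and 1.54-fold (adjusted P = 0.000856 and 0.0133). Of 10 E2F and DP factors, 8 were lower and 2 higher, with a median of -0.98. *E2f7*, *E2f8* and *E2f2* had the largest decreases (2.89-fold, 2.79-fold and 2.78-fold), and *Tfdp2* and *E2f5* were the 2 that rose (1.49-fold and 1.31-fold). Of 14 E2F target genes of S phase, 13 were lower and 0 higher, with a median of -1.59. *Tk1* and *Rrm2*, which supply nucleotides for DNA synthesis, fell 6.89-fold and 4.78-fold.

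The list of ubiquitin ligase parts and partners linked, directly or not, to p27, cyclin E or cyclin D had 1 of 9 genes higher and 4 lower, with a median of -0.11. The list of the CDK-activating kinase, the CDK2 phosphatase and kinase and cyclin A had 1 of 6 higher and 2 lower. Neither list is a result as a group beside the 27.7% and 27.1% of all genes, and single genes are given as such. *Cks1b*, the cofactor SKP2 needs to bind p27, fell 1.94-fold (adjusted P = 0.0025), although *Skp2* itself did not pass the test. *Cks2* and *Fzr1* fell 1.81-fold and 1.51-fold. In each, the treated 4N library lay above the 2N control (45.3 against 44.2 CPM and 53.6 against 50.1 CPM). Counts of *Cks2* are uncertain, as 29.7% of its 50-base words also occur in other genes. *Ambra1*, which directs the destruction of D-type cyclins, rose 1.26-fold (adjusted P = 0.0384). *Ccna2*, the cyclin that follows cyclin E on CDK2, fell 2.66-fold, *Cdc25a*, a phosphatase that activates CDK2, fell 1.77-fold, and *Mnat1* rose 1.22-fold (adjusted P = 0.0431). All 3 listed FoxO factors, which can activate *Cdkn1b*, were higher: *Foxo1* by 2.45-fold, *Foxo4* by 2.26-fold and *Foxo3* by 2.01-fold (adjusted P = 0.00051, 0.000522 and 0.000519). This list, like the others, was chosen with earlier results of these data known, and a link to the *Cdkn1b* increase was not tested. Of 10 G2/M genes, 9 were lower and 0 higher, with a median of -1.28, led by *Ube2c* (4.28-fold), *Plk1* (2.72-fold) and *Bub1* (2.68-fold).

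**Figure D5:**
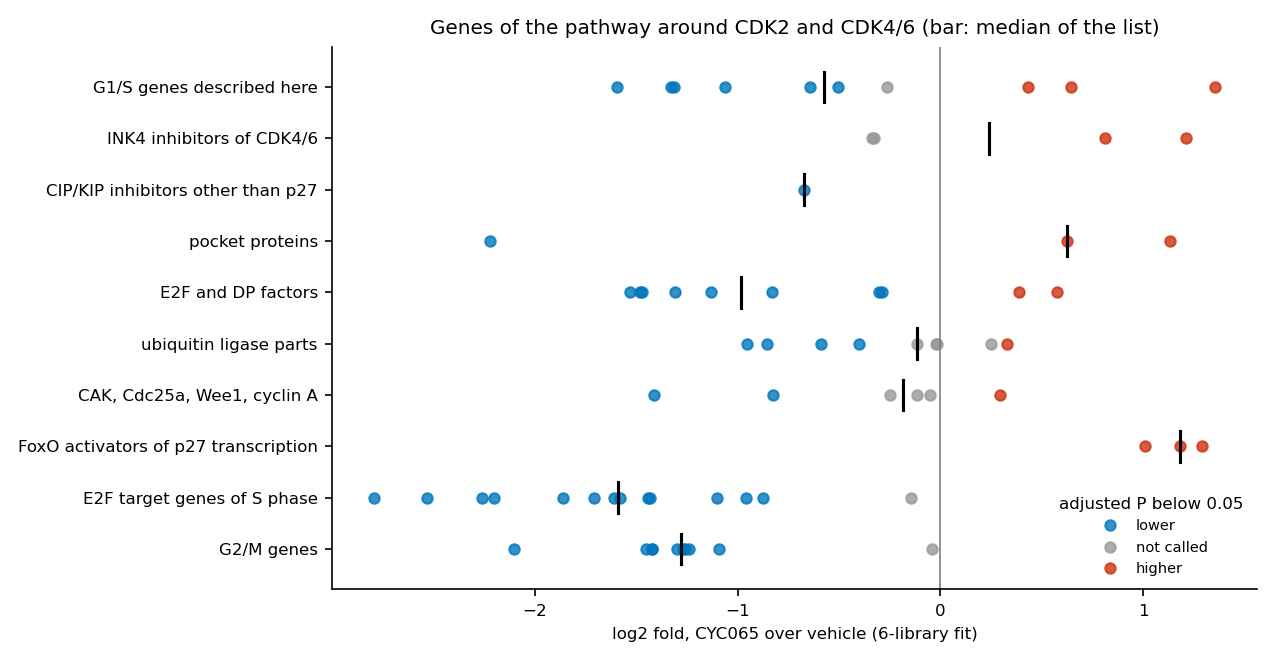
Log2 fold change of CYC065 over vehicle in the 6-library fit (x axis) for each tested gene of the lists (rows), colored by call at an adjusted P below 0.05, with the list's median as a black bar. The 10 genes described here spread over both sides of zero, the S phase and G2/M lists lie to the left, and the 3 FoxO genes lie above 1.

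The genes whose levels ran most like those of a given gene over the 6 libraries were looked up for the 6 genes whose log2 level spanned at least 1, among 4512 genes with that span. The 3 closest by Pearson r of log2 CPM were *Etfb*, *Lrrc57* and *Gm10110* for *Ccne1* (r = 0.996 to 0.994), and *Mfsd2a*, *Rrp36* and *Magohb* for *Ccne2* (r = 0.9995 to 0.996). They were *Exoc8*, *Vps53* and *Loxl4* for *Cdk4* (r = 0.9996 to 0.999), and *Fam136a*, *S100a11* and *Mea1* for *Ccnd1* (r = 0.999 to 0.998). For *Ccnd2* they were *Tspyl1*, *Tnxb* and the collagen gene *Col1a2* (r = 0.998 to 0.995), and for *Cdkn1b* *D3Ertd254e*, *Fnip1* and *Chkb* (r = 0.998 to 0.996). With 6 libraries in 2 treatments such values were common, and between 421 (*Ccnd2*) and 956 (*Ccnd1*) genes exceeded 0.95. Counts of *Etfb*, *Gm10110*, *Chkb*, *S100a11* and *Magohb* are uncertain, as 26.8% to 71.2% of their 50-base words also occur in other genes. Of the 10 genes described here, none shared more than 1.99% of its words with another gene on the same strand.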

How the data were processed

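ED1SQ4 RNA was sequenced as rRNA-depleted stranded libraries. The deposited values are expected counts that the authors estimated with RSEM (1.3.1) for GENCODE M21 genes after Cutadapt (1.18) trimming and STAR (2.7.0f) alignment to mm10; versions are those of the submitters' processing notes, and the study's methods give other versions of bcl2fastq (2.17 in the notes) and RSEM. Whether counting used strand was not given in the sources used here.

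The 3 columns of a condition were summed and rounded. Among columns, chi-square per degree of freedom was 0.991 to 1.02 over whole-count genes, 4.35 to 7.59 over genes with fractional estimates, and 36.6 to 979 between libraries. Same-numbered columns did not deviate together (correlations from -0.0436 to 0.0293), so the numbers do not pair them.

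Genes reaching 30 summed counts in 1 library were fitted with edgeR (4.0.16, R 4.3.3) with TMM factors, a population and a treatment term, and prior count 0.125, leaving 2 residual degrees of freedom. Pairwise folds used TMM-scaled counts plus 0.5. On data simulated for the CYC065 versus vehicle fit (14233 genes), 89 of 100 genes changed 2-fold and 100 of 100 changed 4-fold were recovered, and 18 unchanged genes were called. The simulated data held no differences between populations and far fewer changed genes than the real libraries. These rates therefore check the procedure and do not give the error rates of the real fit.

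Named genes were the 10 genes, up to 3 called genes per direction of each list by size, and the 3 most alike; 1 gene so named is not reported here. The genes and lists were chosen with earlier results of these data known. DESeq2 (1.42.0), other scalings, filters and prior counts, a replicate block and leaving out columns or populations were alternatives; the principal transcript length was added after seeing the data. Other steps used SciPy 1.17.1, NumPy 2.4.6 and pandas 2.3.3 in Python 3.11.15. Intervals cover counting error only, as reads carry no molecular identifiers.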

Additional observations from a re-analysis of the deposited data

Results flagged for a closer look

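The difference between 4N and 2N cells had opposite signs in vehicle and CYC065-treated cells for 4 of the 10 genes, with both counting intervals away from 0. *Cdk2* had a log2 fold change of 0.147 with CYC065 and -0.272 with vehicle. *Cdk4* had -0.140 and 0.091, *Ccnd1* had -0.299 and 0.201, and *Ccnd2* had -0.286 and 0.107 in the same order. Each value compares 1 library with 1 library, and the difference between the treatments was not tested.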

How the results depend on the processing

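Over 15 alternatives, the CYC065 calls of *Ccne1*, *Ccne2*, *Cdk4*, *Ccnd1* and *Cdkn1b* kept their direction and their side of the threshold, with adjusted P of at most 0.0111. *Cdk2* and *Ccnd2* lost theirs only where a log2 fold change beyond 1 was also required, and *Cdk6* and *Ccnd3* there and without the 2N or the 4N libraries. Requiring that fold left 1 of the 10 genes called higher, and 1982 and 1467 of all genes called higher and lower. All genes called higher were 2378 without the 2N libraries and 2531 without the 4N libraries, and 2563 were called lower without the 2N libraries. With the 18 columns taken as replicates, 6307 genes were called higher without and 6244 with the replicate block, and *Skp2* passed too (adjusted P = 0.00594 and 0.0103). For 4N versus 2N cells, the columns gave 1312 higher and 1299 lower genes without the block and 1121 and 1081 with it, and 1 of the 10 genes, *Ccnd3*, was lower in both. Without a filter there were 31 and 6, without the unsorted libraries 132 and 97, and with DESeq2 79 and 18. Leaving out 1 column per condition in turn called 0 to 4 genes higher in 4N cells. The cause was not tested. In pairwise folds, *Skp2* in 4N cells ranged from -0.07 to 0.05 and *Ccne1* in 4N over 2N vehicle cells from -0.09 to 0.01. The treatment differences of the ratios moved by less than the spread between libraries when a column was left out, and gene length cancels in them. Spread between cultures was not measured, and with 1 library per condition no difference in response between populations could be tested. Gene lengths per kb rest on all annotated exons.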
